A study of Mus musculus with 4 samples.

Results

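Of 168348 chromatin regions on mouse chromosomes 1 to 19 that were open in at least 1 of 4 cell populations, 22745 were open in induced pluripotent stem cells (iPSC) and in no other population. They are called iPSC-only regions here. The assay was ATAC-seq: a transposase cuts accessible DNA and tags it for sequencing, so that reads pile up where chromatin is open. Each population had 1 library. The members were chosen from the 4 deposited peak lists: peaks at most 10 bp apart were joined across lists, a joined region was open in a population if it held a peak of its list, and regions were kept that held iPSC peaks alone. They were thus 13.5% of all regions and 29.5% of the 77208 regions open in iPSC.

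The iPSC carry the strain label A12 (Mbd3 flox/-), a conditional and a null allele of Mbd3, a subunit of the NuRD remodelling complex. They were set against 3 other libraries. The intermediate came from Nanog-CreER reporter fibroblasts of B6/129 strain with a Rosa26-TdTomato (B6 female) and a Col1a-OSKM (129 male) transgene, exposed to the doxycycline-driven factors Oct4, Sox2, Klf4 and Myc (OSKM) and to 4-hydroxytamoxifen from day 1 to day 9. The medium held a JAK1 inhibitor (0.5 µM). Only tdTomato-positive cells, which mark past activity of the Nanog-driven recombinase, were taken by sorting, without feeder cells. The title of that sample gives day 9 and its source field day 6. The same title names neural stem cells, and not iPSC, as the cell type that the OSKM treatment aimed at. The intermediate is therefore not labelled as a stage on the way to the iPSC studied here. Embryonic stem cells (ESC) are of the line v6.5, and mouse embryonic fibroblasts (MEF) share the strain label of the iPSC. Per the labels, transposition of 50000 cells took 30 minutes (37 °C), and the libraries went through 12 cycles of PCR. It is not stated whether the iPSC are 1 clone, how they were derived or on what they were grown. With 1 library per population no difference has a replicate check, no p-value is given, and library, strain and cell type cannot be told apart.

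Pluripotent cells hold a network of transcription factors, with Oct4, Sox2 and Nanog at its core, that binds enhancers far from genes and keeps them accessible. Promoters of broadly used genes are rich in CpG dinucleotides and open in most cell types, whereas distal enhancers and CpG-poor promoters differ between cell types. Reprogramming closes enhancers of the fibroblast, many of them bound by AP-1 factors, and opens those of the pluripotent cell. Oct4 is encoded by Pou5f1.

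The first 5 promoter windows below lie under iPSC-only regions, and the last one, from the glycolytic housekeeping gene Gapdh, lies under a region open in every library. They are shown because most promoters open in iPSC alone were poor in CpG. Each runs from 250 bases before to 50 after a RefSeq transcription start (GRCm38.p6, the assembly that mm10 names) on the gene's own strand, 5′ to 3′. Capitals mark CG dinucleotides and, in the calpain gene Capn3, also the octamer bound by Oct4, which reads ATTTGCAT there. The window of Pou5f1 is chr17:35505782-35506081 on the plus strand and that of the mitochondrial creatine kinase gene Ckmt2 is chr13:91876836-91877135 on the minus strand. That of Kcnip3, which encodes a calcium-binding partner of potassium channels, is chr2:127521343-127521642 on the minus strand. Ranbp3l has its window at chr15:8967699-8967998 (plus), Capn3 at chr2:120476659-120476958 (plus) and Gapdh at chr6:125165724-125166023 (minus).
Pou5f1: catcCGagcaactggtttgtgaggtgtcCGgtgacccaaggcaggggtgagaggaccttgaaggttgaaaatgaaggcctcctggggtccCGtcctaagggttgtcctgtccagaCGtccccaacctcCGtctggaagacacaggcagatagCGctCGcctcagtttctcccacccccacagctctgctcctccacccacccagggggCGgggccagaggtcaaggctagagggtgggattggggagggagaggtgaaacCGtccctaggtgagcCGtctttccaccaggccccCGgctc
Ckmt2: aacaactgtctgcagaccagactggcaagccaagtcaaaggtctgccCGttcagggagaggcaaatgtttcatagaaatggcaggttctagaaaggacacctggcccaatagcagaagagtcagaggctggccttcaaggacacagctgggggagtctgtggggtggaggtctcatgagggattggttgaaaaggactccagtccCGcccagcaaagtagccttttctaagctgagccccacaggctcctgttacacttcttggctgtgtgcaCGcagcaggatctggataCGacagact
Kcnip3: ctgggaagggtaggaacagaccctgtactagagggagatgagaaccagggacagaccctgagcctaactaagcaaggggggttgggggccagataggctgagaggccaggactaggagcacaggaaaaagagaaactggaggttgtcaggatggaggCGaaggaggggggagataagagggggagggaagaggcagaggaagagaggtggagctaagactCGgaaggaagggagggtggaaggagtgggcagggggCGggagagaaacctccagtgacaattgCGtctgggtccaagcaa
Ranbp3l: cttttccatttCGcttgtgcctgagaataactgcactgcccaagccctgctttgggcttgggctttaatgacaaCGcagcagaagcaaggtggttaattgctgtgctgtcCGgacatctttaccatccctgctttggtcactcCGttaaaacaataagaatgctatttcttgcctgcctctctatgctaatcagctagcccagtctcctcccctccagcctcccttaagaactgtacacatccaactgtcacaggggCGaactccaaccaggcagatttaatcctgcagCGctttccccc
Capn3: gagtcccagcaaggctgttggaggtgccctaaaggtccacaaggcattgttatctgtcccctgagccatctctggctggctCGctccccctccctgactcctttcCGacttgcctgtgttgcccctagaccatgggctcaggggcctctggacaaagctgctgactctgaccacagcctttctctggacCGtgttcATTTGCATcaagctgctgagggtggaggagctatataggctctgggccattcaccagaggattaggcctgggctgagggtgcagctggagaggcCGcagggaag
Gapdh: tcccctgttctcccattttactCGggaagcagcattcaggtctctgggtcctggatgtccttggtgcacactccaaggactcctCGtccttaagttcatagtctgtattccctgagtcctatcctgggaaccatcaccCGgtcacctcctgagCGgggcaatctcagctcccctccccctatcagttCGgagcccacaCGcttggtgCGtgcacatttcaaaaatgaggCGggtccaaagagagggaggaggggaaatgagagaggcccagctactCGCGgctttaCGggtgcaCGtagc
Pou5f1 had 11 CG dinucleotides in this window, Ckmt2 4, Kcnip3 4, Ranbp3l 6 and Capn3 4, against 12 in Gapdh. The ratio of observed to expected CpG was 0.374 for Pou5f1, 0.187 for Ckmt2, 0.213 for Kcnip3, 0.336 for Ranbp3l and 0.153 for Capn3, against 0.501 for Gapdh. Gapdh is low for its class: windows open in all 4 libraries had a median of 0.787 (middle 50% from 0.614 to 0.927). The deposited files hold no sequence of the regions themselves, so only windows of the promoter table are printed.

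The lists held 128931 peaks on chromosomes 1 to 19 in iPSC, 130631 in the intermediate, 125858 in ESC and 155064 in MEF. They covered 69.9 Mb in iPSC, 64.0 Mb in the intermediate, 66.0 Mb in ESC and 73.1 Mb in MEF. Peak height is a whole-number signal with a minimum of 5 in every list. It is not scaled to sequencing depth, which is unknown for each list. A region without a listed peak in a population was not measured as closed there. Of 29 autosomal genes of the core and naive pluripotency list, 27 had a peak within 1 kb of a gene end in iPSC, against 20 in the intermediate, 26 in ESC and 12 in MEF. Of 32 fibroblast and mesenchymal genes, 20 had one in iPSC, against 20 in the intermediate, 25 in ESC and 30 in MEF. Over all 20665 protein-coding genes the counts were 13854 in iPSC, 13233 in the intermediate, 14197 in ESC and 13661 in MEF. By the pluripotency genes the iPSC list stood near the ESC list; by the fibroblast genes it was level with the intermediate and below ESC and MEF.

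The share of regions open in 1 population alone was 29.5% in iPSC (Wilson 95% interval 29.1 to 29.8, n = 77208), against 37.5% in the intermediate, 17.3% in ESC (17.0 to 17.5, n = 67617) and 56.9% in MEF. In counts, 22745 regions were open in iPSC alone, 24663 in the intermediate alone, 11665 in ESC alone and 43065 in MEF alone. A further 26878 regions were open in iPSC and ESC and not in MEF, and 17618 were open in all 4 populations. Intervals in this text cover counting error over regions only.

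iPSC-only regions were lower and narrower than regions shared between populations. Their median iPSC peak height was 39 (middle 50% from 32 to 52, range 5 to 9486), against 60 in regions open in iPSC and ESC without MEF and 95 in regions open in all 4. Their median width was 650 bp (520 to 800, range 201 to 17700), against 1010 bp in regions shared with ESC and 1650 bp in regions open in all 4. The width of a joined region runs over the peaks of every list in it, so shared regions can be wider by the rule alone. Regions open in 1 other population alone were of similar size: the median width was 740 bp for intermediate-only, 620 bp for ESC-only and 740 bp for MEF-only regions, and the median height in their own unscaled list was 42, 30 and 39 in the same order. Together the iPSC-only regions covered 15.5 Mb. A single peak made up 71.8% of them, and 56 held 5 peaks or more. With all iPSC-open regions ranked by iPSC height and divided into 4 groups of 19302, iPSC-only regions made up 53.5% of the lowest group (heights 5 to 37), 37.0% of the second, 20.9% of the third and 6.39% of the tallest (heights of 87 and above). ESC-only regions made up 38.1, 21.0, 8.55 and 1.31% of the matching groups of ESC-open regions. The share fell with height in both lists, and it was higher in iPSC than in ESC in each group. Peak height thus moved with membership, and its part in the other contrasts was not tested.

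**Figure D1:**
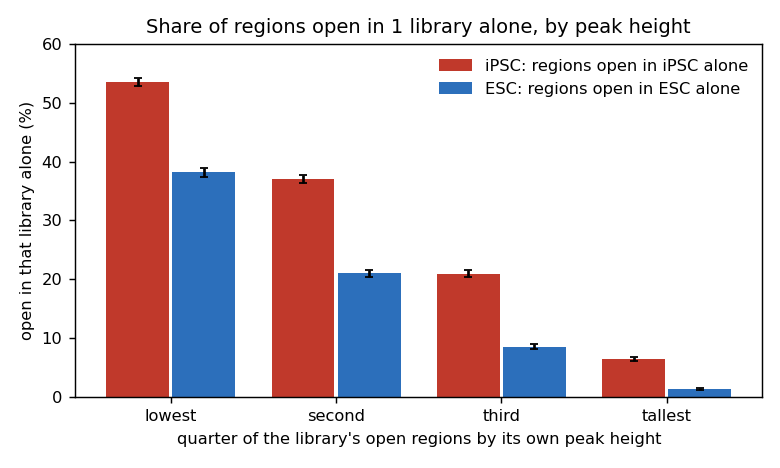
Bars give the share (%) of iPSC-open regions that were open in iPSC alone (red) and of ESC-open regions open in ESC alone (blue), in 4 equal groups of each library's open regions from the lowest to the tallest peak height; error bars are Wilson 95% intervals. The iPSC bars fall to 6.39% in the tallest group and stand above the ESC bars, which fall to 1.31%.

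At the limit of the rule, 578 iPSC-only regions had a peak of another list 11 to 100 bp away; their median height was 29 and their median width 465.5 bp. Just outside it, 3634 iPSC peaks shared no base with another list but were joined into a region that held another list's peak. Joining ran over gaps of at most 10 bp, either directly or through neighbouring iPSC peaks. These iPSC peaks had a median height of 11 and a median width of 210 bp. Both sets were lower than the median member. Of all members, 83.2% had no peak of any other list within 1 kb and 51.2% had none within 5 kb. The median distance to the nearest ESC peak was 11.3 kb, to the nearest MEF peak 13.1 kb and to the nearest intermediate peak 13.8 kb. An ESC peak lay within 1 kb of 9.18% of them (8.81 to 9.56), an intermediate peak within 1 kb of 7.34% and a MEF peak within 1 kb of 7.43%. In reverse, the median distance of ESC-only regions to the nearest iPSC peak was 7.88 kb, and 13.1% of them (12.5 to 13.7) had one within 1 kb. No peak of any other list lay within 10 kb of 32.1% of the iPSC-only regions.

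Few iPSC-only regions lay near genes' ends: 3.76% (3.52 to 4.01) lay within 1 kb of an end of a protein-coding gene, against 5.22% of intermediate-only regions, 6.58% (6.15 to 7.05) of ESC-only regions, 4.63% of MEF-only regions, 6.82% of regions open in iPSC and ESC without MEF, 58.7% of regions open in all 4 and 11.7% of all regions. Measured to a RefSeq transcription start, for which chromosome 18 had no entry, the share within 1 kb was 3.40% (3.17 to 3.65) for iPSC-only, 3.39% for intermediate-only, 4.44% (4.08 to 4.84) for ESC-only and 3.98% for MEF-only regions. The median distance to a start was 35.9 kb for iPSC-only regions, against 26.1 kb for intermediate-only, 25.5 kb for ESC-only and 26.4 kb for MEF-only regions, 34.5 kb for regions shared by iPSC and ESC without MEF and 0 kb for regions open in all 4. Gene bodies held 47.0% of the iPSC-only regions and 44.5% of the ESC-only regions. They held 52.4% of intermediate-only, 52.5% of MEF-only and 53.0% of all regions, and 42.8% of those shared by iPSC and ESC without MEF. The genes that held iPSC-only regions were long, with a median length over regions of 140 kb. It was 88.7 kb for ESC-only regions and 129 kb for the regions shared by iPSC and ESC without MEF. For intermediate-only regions it was 101 kb, for MEF-only regions 113 kb and for all regions 93.1 kb. More than 100 kb from any protein-coding gene lay 20.7% of the iPSC-only and 17.0% of the ESC-only regions. The same held for 21.6% of regions shared by iPSC and ESC without MEF, 13.6% of intermediate-only, 14.7% of MEF-only and 14.5% of all regions.

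**Figure D2:**
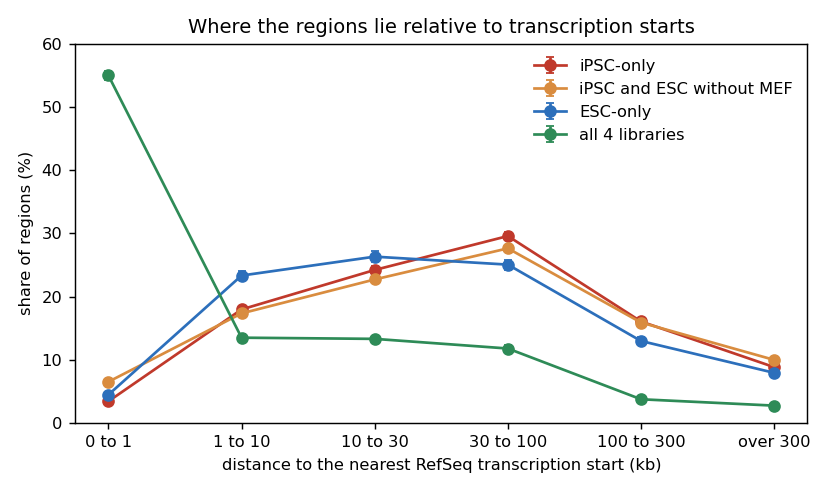
Points give the share (%) of regions in 6 bins of distance (kb) to the nearest RefSeq transcription start, with Wilson 95% intervals, for iPSC-only regions, regions open in iPSC and ESC without MEF, ESC-only regions and regions open in all 4 libraries. iPSC-only regions are scarcest within 1 kb (3.40%) and most frequent between 30 and 100 kb (29.6%), where 25.1% of ESC-only regions lie.

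The share of iPSC-open regions that were iPSC-only differed between chromosomes. It was lowest on chromosome 19, at 21.8% (19.8 to 23.9), and on chromosome 11, at 23.2% (21.9 to 24.5). It was highest on chromosome 14, at 33.3% (31.7 to 34.8), and on chromosome 13, at 33.1% (31.6 to 34.6). Of the 1178 iPSC-only regions on chromosome 14, 137 lay below 8 Mb, among mostly predicted genes, and the rank of this chromosome depends on them. ESC-only shares ran from 14.4% on chromosome 3 to 21.5% on chromosome 19. Across the 19 chromosomes the iPSC-only share was lower where protein-coding genes were denser, with Pearson's r = -0.83 and Spearman's rho = -0.85, and r = -0.78 without the 2 chromosomes farthest from the median density. For the ESC-only share r was 0.39. Chromosomes of 1 library are not independent samples, so these values describe the lists and have no p-value. The unscaled height of regions open in all 4 populations moved along: its iPSC median per chromosome ran from 74 on chromosome 19 to 114 on chromosome 1, with r = 0.86 against the iPSC-only share and r = -0.71 against gene density. Against gene density the same median had r = 0.57 in ESC, 0.66 in MEF and -0.19 in the intermediate. The part of this height trend in the iPSC-only share was not tested.

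**Figure D3:**
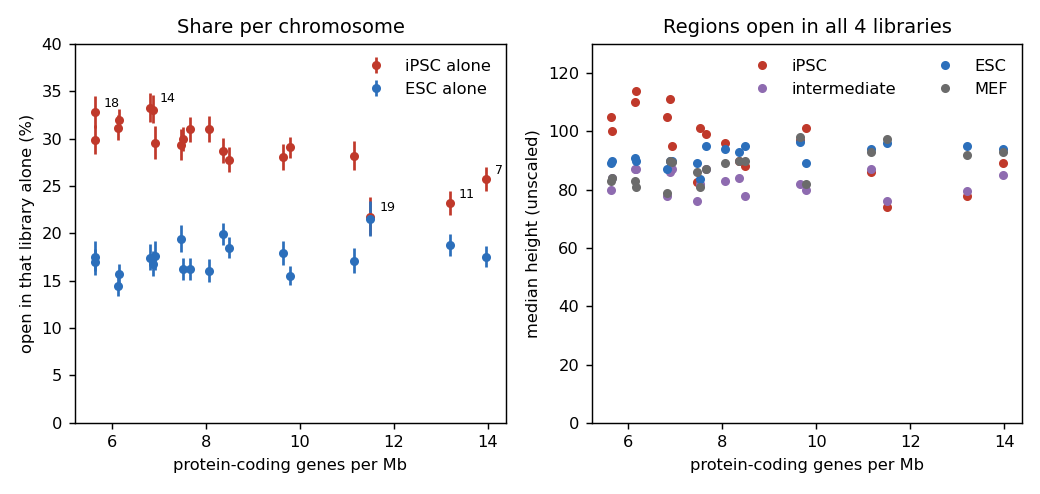
Left, the share (%) of open regions that were open in iPSC alone or in ESC alone, per chromosome, against protein-coding genes per Mb, with Wilson 95% intervals and some chromosomes numbered; right, the median unscaled height of regions open in all 4 libraries per chromosome in each library. The iPSC-only share falls with gene density (r = -0.83) and so does the iPSC height on the right (r = -0.71).

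The most extended iPSC-only region lay over Pou5f1 at chr17:35497551-35515250. It spanned 17700 bp and consisted of 25 adjoining iPSC peaks, 10 bp apart at most, that covered 98.8% of it. Heights ran from 12 to 1330 with a median of 117. Whether all reads behind these peaks came from the native locus was not tested. The region took in the whole gene, the long non-coding RNA gene Gm32362 before it and part of Tcf19, a gene linked to the cell cycle, after it. The tallest peak, of height 1330, ran from -2.80 to -1.56 kb relative to the lower end of the gene, which is its start, and a peak of 790 lay over the start itself. A peak of 655 had its summit at 3.51 kb, inside the gene, and peaks of 540 and 680 had theirs at 7.38 and 8.09 kb, in Tcf19. The other lists held no peak in the region: the nearest ESC peak, of height 181, began 0.971 kb beyond its end, the nearest MEF peak 17.2 kb and the nearest intermediate peak 18.7 kb beyond it. The promoter window printed above held matches to the search letters of Klf4 (GGGNGTGG), Grhl (AACCNGTT) and CTCF (CNAGGGGGC or CNAGGTGGC) on either strand. On the other side of the region, the ESC list held a peak of height 45 from -15.8 to -14.9 kb. ESC are also known to express Pou5f1. Why their list held no peak in the region was not tested, and the depth behind it at this site is unknown.

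**Figure D4:**
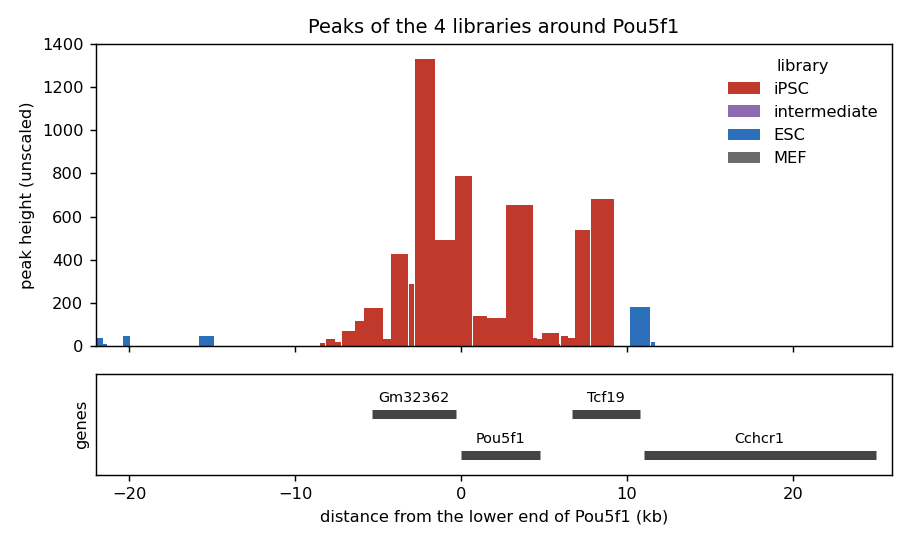
Peaks of the 4 libraries (upper panel, unscaled height) and genes (lower panel) by distance in kb from the lower end of Pou5f1, which is its transcription start. The 25 iPSC peaks adjoin each other around the gene with a maximum of 1330, while ESC peaks, such as the one of height 181, lie outside this stretch and the window drawn holds no MEF or intermediate peak.

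Stretches of adjoining peaks over 5 kb were rare. There were 7 among iPSC-only regions, 0 among intermediate-only, 1 among ESC-only and 3 among MEF-only regions. Beside Pou5f1, a pair lay in Sfi1, which encodes a centrosomal protein. The first, chr11:3183901-3190701, held 12 peaks with heights of 6 to 704. The second, chr11:3190721-3198730, held 12 peaks of 33 to 9486 and was the tallest iPSC-only region of all. The nearest ESC peak was 3.00 kb from it and the nearest MEF peak 66.7 kb. The others were lower and more even: 10 peaks of 30 to 57 at 201 kb from Lama2, 12 peaks of 33 to 60 at 152 kb from Nup35, 9 peaks of 18 to 72 at 171 kb from Gpr158, and 9 peaks of 25 to 81 in S100a7l2. Each of the 7 was at least 98.4% covered by its peaks.

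After Sfi1 and Pou5f1 came 7 shorter regions, none within 1 kb of an end of a protein-coding gene. A region of height 445 lay 41.7 kb from C1galt1, which encodes a glycosyltransferase of O-glycan synthesis. One of 416 lay 69.2 kb from Creb3l1, a membrane-bound transcription factor gene, and one of 374 lay in Gm1527, over the start of the non-coding gene Gm33102. A region of 367 lay inside Alg9, a mannosyltransferase gene, and one of 337, made of 6 peaks over 3350 bp, inside Cerkl. A region of 352 lay 7.03 kb from Gm3727 and one of 336 lay 120 kb from Zfp462, a zinc finger gene. The nearest ESC peak was 27.2 kb from the region near C1galt1 and 32.9 kb from that near Creb3l1, but 1.26 kb from that near Gm3727 and 1.23 kb from that near Zfp462. Of all iPSC-only regions, 99% had a height of at most 148.

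Of 20665 protein-coding genes, 866 (4.19%) had an iPSC-only region within 1 kb of an end, against 793 (3.84%) with an ESC-only region there. The tallest of these regions was that of Pou5f1. Next came Gm2974, at 308. The region at Fabp4, the fatty acid binding protein of adipocytes, had a height of 192 and that at Fam13a one of 185. The region over the start of Ckmt2 had a height of 173, and those over the starts of Kcnip3 and Ranbp3l had 159 each. The calcium channel subunit gene Cacng3 had 151 at the end far from its start, Gm2897 had 150, and the carbonyl reductase gene Cbr3 had 147. A peak of another list stood within 1 kb for some of them: an ESC peak 0.26 kb from the region at Gm2974 and 0.101 kb from that at Gm2897, whereas Fabp4, Ckmt2 and Cacng3 had none nearer than 1.09, 15.2 and 11.4 kb. Asked of genes in place of regions, 234 genes (1.13%) had an end peak in iPSC and in no other list, against 225 (1.09%) for ESC. Among the 234, after Pou5f1, Ckmt2 and Ranbp3l, the tallest were Mup5 (height 129), a major urinary protein gene, Tmprss2 (127), a membrane serine protease gene, and Cfap97d2 (126). These 3 were named after their values were seen.

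Promoter windows showed a difference in base composition that the choice of members did not use. In 449 windows of 407 genes, the iPSC-only region was all that overlapped. Their median ratio of observed to expected CpG was 0.272, against 0.436 in 281 ESC-only windows, 0.461 in 1538 windows open in iPSC and ESC without MEF, 0.787 in 12537 windows open in all 4, 0.228 in 819 MEF-only windows and 0.184 in 13425 windows without a listed peak. The ratio was below 0.5 in 86.9% of iPSC-only windows (83.4 to 89.7), against 58.7% of ESC-only windows (52.9 to 64.3) and 57.6% of all windows. Windows of protein-coding genes made up 40.3% of the iPSC-only set (35.9 to 44.9), against 65.5% of the ESC-only set (59.7 to 70.8). The iPSC-only windows were thus nearer in CpG content to MEF-only windows and windows without a peak than to ESC-only windows. Windows of neighbouring starts overlap, so they are not independent.

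**Figure D5:**
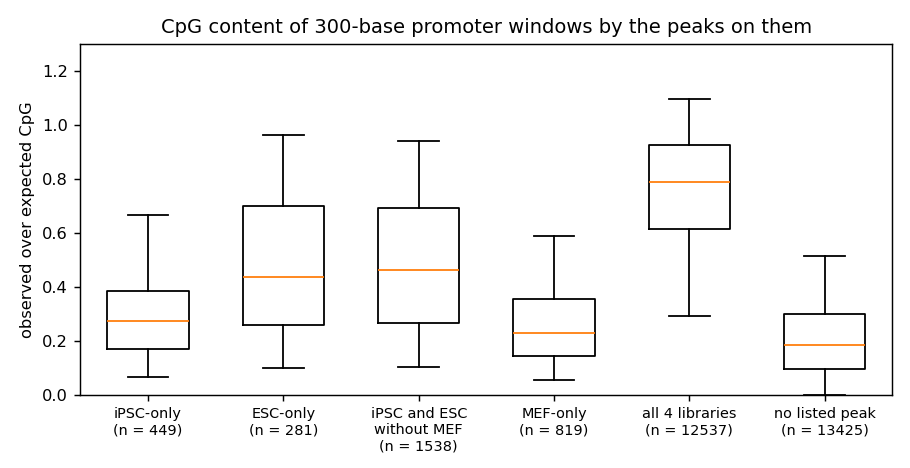
Boxes give the median and the middle 50%, and whiskers the 5th to 95th percentile, of the ratio of observed to expected CpG in 300-base promoter windows, by the population or populations with a peak on the window. The iPSC-only median (0.272) lies near those of MEF-only windows (0.228) and windows without a peak (0.184), and below the ESC-only median (0.436).

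In these windows 9 sequence motifs were searched on both strands, and overlaps between different motifs were allowed. The AP-1 letters TGANTCA occurred in 7.80% of iPSC-only windows (5.66 to 10.6), against 22.3% of MEF-only windows (19.6 to 25.3), 6.41% of ESC-only windows and 7.84% of all windows. The Sox2 letters ACAATGG occurred in 6.01% of iPSC-only windows (4.17 to 8.61), against 2.85% of ESC-only windows (1.45 to 5.52) and 3.61% of all. They occurred in 4.88% of MEF-only windows and 5.24% of windows without a listed peak. The octamer ATGCAAAT was found in 1.78% of ESC-only, 2.20% of MEF-only and 1.75% of all windows, and in 2.02% of those without a listed peak. Of iPSC-only windows, 12 held it, or 2.67% (1.54 to 4.61). Of the 12, 3 belonged to protein-coding genes, among them Capn3 with a region of height 64; 4 were overlapping windows of the non-coding gene Gm30440. The Klf4 letters occurred in 17.4% of iPSC-only windows, against 21.7% of ESC-only, 14.5% of MEF-only and 17.7% of all. They occurred in 10.7% of windows without a listed peak. The Esrrb letters TCAAGGTCA were found in 4 iPSC-only windows (0.891%), against 2 ESC-only windows (0.712%) and 0.417% of all. They were found in 0.611% of MEF-only windows and 0.611% of windows without a listed peak. The Runx letters TGTGGTT occurred in 5.12% of iPSC-only windows, against 9.65% of MEF-only and 5.32% of all. The Tead letters ACATTCC were found in 3.34%, against 6.35% of MEF-only and 3.89% of all windows. The Grhl letters were found in 2.00%, against 2.09% of all, and the CTCF letters in 4.01%, against 6.76% of ESC-only windows. Of windows without a listed peak, 10.2% held the AP-1, 7.40% the Runx, 4.92% the Tead, 2.48% the Grhl and 1.74% the CTCF letters. For each of the 9 motifs the intervals of iPSC-only and ESC-only windows overlapped, whereas the AP-1 and Runx intervals of MEF-only windows lay above those of iPSC-only windows.

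By nearest gene body within 100 kb, 7532 protein-coding genes (36.4%) had at least 1 iPSC-only region, against 6075 (29.4%) with an ESC-only region. The genes with the most were long. Pde4d, a cAMP phosphodiesterase gene, and Sox5, an HMG-box factor gene, had 33 each, against 6 and 5 ESC-only regions. St6galnac3, a sialyltransferase gene, had 32 iPSC-only against 2 ESC-only regions. Robo1, an axon guidance receptor gene, had 30 against 5, and the teneurin adhesion genes Tenm3 and Tenm4 had 28 and 21 against 2 each. Ptprn2, a receptor phosphatase-like gene of secretory granules, had 25 against 2. Dlgap1, a postsynaptic scaffold gene, had 20 against 2, and Dpp6, a potassium channel subunit gene, had 20 against 5. iPSC-only regions made up 40.4% (Tenm4, 28.2 to 53.9) to 58.9% (Sox5, 45.9 to 70.8) of the iPSC-open regions at these genes. Each was over 500 kb long. Gene length moved with the share in general: iPSC-only regions made up 20.7% of iPSC-open regions assigned to genes under 20 kb, 24.3% at 20 to 50 kb, 27.5% at 50 to 100 kb, 32.3% at 100 to 200 kb, 34.8% at 200 to 500 kb and 37.1% at 500 kb and over. The ESC-only share ran from 15.9% under 20 kb to 19.7% at 500 kb and over.

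Relative to gene length, among genes of at least 20 kb with at least 5 such regions, the most iPSC-only regions were assigned to Irs2, an insulin receptor substrate gene, with 10, or 41.2 per 100 kb of gene. Pax6, a master regulator of eye and forebrain development, had 11, or 37.3 per 100 kb, against 1 ESC-only region. They made up 50.0% of its 22 iPSC-open regions, and the tallest had a height of 178 and lay 8.47 kb from the gene. Gm3500 had 8 against 0 ESC-only regions, Atp1b1, a subunit gene of the sodium-potassium pump, 7 against 2, and Dapl1 6 against 1. Fbxo33, an F-box protein gene, had 6 against 1, B3gnt2, a glycosyltransferase gene, 7 against 1, Tdrp 6 against 0, Gm3373 6 against 0, and Lhx8, a LIM-homeobox gene of forebrain neurons, 6 against 1. Most of these regions lay outside the gene: of the 10 at Irs2, 2 were in its body and 4 within 20 kb.

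iPSC-only regions followed each other along the chromosome. Runs of consecutive regions in which each was iPSC-only held 37.7% of them in stretches of at least 2, against 22.9% for ESC-only, 41.1% for intermediate-only and 59.7% for MEF-only regions. A more numerous class forms more and longer runs by its number alone, and the values are not corrected for it. The longest iPSC-only run was 12 regions over 60.8 kb at Lifr, the receptor gene for leukaemia inhibitory factor, which keeps mouse pluripotent cells undifferentiated. It spanned chr15:7134051-7194870. Its heights were 30, 87, 41, 62, 50, 38, 39, 36, 107, 38, 98 and 39 from the lower to the upper end, so that 3 of the 12, at 87, 107 and 98, stood above the others. By the definition of a run, no peak of ESC, MEF or the intermediate lay between them. At Lifr as a whole, 12 of 18 iPSC-open regions were iPSC-only, against 1 ESC-only region. A run of 9 lay in St6galnac3 (chr3:153580721-153637220, heights 12 to 114). Runs of 7 lay at Brms1l (heights 6 to 167), at Grid1 (35 to 65), a glutamate receptor gene, at Cacng3 (9 to 151), at Rbpms (26 to 91), an RNA-binding protein gene, between 483 and 589 kb from Nox3, the nearest protein-coding gene (6 to 107) and at 2 places among Gm and LOC genes of chromosome 14 (44 to 88 and 9 to 194). The longest ESC-only run had 6 regions. In all there were 9 iPSC-only runs of 7 or more, against 10 for the intermediate, 0 for ESC and 172 for MEF. Peaks more than 10 bp apart stay separate regions under the rule, so short pieces beside a larger region also lengthen runs. Such a piece of 211 bp was counted at St6galnac3 (height 12), Brms1l (6), Cacng3 (9), near Nox3 (6) and near LOC108168187 on chromosome 14 (9). Each stood next to a taller region of the same run.

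The lower end of chromosome 14 recurred in these descriptions. Below 8 Mb, 137 of 213 iPSC-open regions were iPSC-only, or 64.3% (57.7 to 70.4), against 1 of 71 ESC-open regions that was ESC-only. Of the 81 protein-coding genes listed there, 75 have a Gm or LOC name, which marks predicted genes. How reads that match several of these genes were placed is not given in the sources used here, so values there are uncertain.

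An iPSC-only region was assigned to 18 of the 29 genes of the list, or 62.1% (44.0 to 77.3), against 36.4% of all protein-coding genes; ESC-only regions were also assigned to 18 of them. Counted over regions, 64 of the 229 iPSC-open regions of the list, 27.9%, were iPSC-only, against 27.6% over all genes. At a gene end, 3 of the 29 had one, or 10.3% (3.58 to 26.4), an interval that holds the 4.19% of all genes; 5 of the 29 had an ESC-only region there. The 3 were Pou5f1, Esrrb and Prdm14. Esrrb, an orphan nuclear receptor gene of naive cells, had 6 iPSC-only regions with heights of 66, 37, 43, 30, 53 and 36. The one of 66 lay over an end of the gene at chr12:86360581-86361660, 33.6 kb from the nearest ESC peak and 6.53 kb from the nearest intermediate peak. Prdm14, a repressor of differentiation, had 6 with heights of 42, 30, 33, 35, 54 and 74. That of 74 overlapped an end of the gene, with an ESC peak 0.751 kb and an intermediate peak 0.701 kb away.

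Nr5a2, a nuclear receptor that can stand in for Oct4 in reprogramming, had the most members of the list: 10 of its 24 iPSC-open regions were iPSC-only, with heights of 33 to 59, and 5 of them lay in its body. Fbxo15, an early marker of reprogramming, had 6 of 13, the tallest 100 inside the gene. Tet2, a methylcytosine oxidase gene, had 5 of 20, with one of 138 inside the gene, 0.751 kb from an ESC peak, and one of 95 outside it, 4.16 kb from an ESC peak. Zfp42, which encodes the marker Rex1, had 5 of 14 with a maximum of 59. Dppa4, a chromatin-associated protein gene of early embryos, had 4 of 6 with a maximum of 45. Klf4 and Sox2, both OSKM factors, had 3 of 11 and 3 of 14. The tallest at Klf4 was 101, at 51.0 kb, and the tallest at Sox2 was 73, at 8.88 kb. Tfcp2l1, a factor of the naive state, had 3 of 12, and Fgf4, a growth factor gene driven by Oct4 and Sox2, had 3 of 6 with a maximum of 47. Klf5 had 2 of 16, Dppa3 2 of 6, Dppa5a 2 of 8, and Tbx3, Tet1 and Sall4 1 each, with heights of 28, 48 and 27. Nanog, Klf2, Dppa2, Gdf3, Tdgf1, Utf1, Lin28a, Dnmt3l, Lefty1, Lefty2 and Gbx2 had none. Outside Pou5f1, the heights at these genes lay between 9 and 138.

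In the other lists, iPSC-only regions were assigned to 7 of 13 primed pluripotency genes, against 12 with an ESC-only region. The counts were 4 of 9 against 2 for the 2-cell-like state, 7 of 12 against 6 for germline genes, 10 of 19 against 11 for neural stem cell genes and 7 of 14 against 8 for mesoderm and endoderm genes. They were 3 of 7 against 4 for trophoblast genes, 6 of 14 against 7 for epithelial genes, 16 of 32 against 16 for fibroblast and mesenchymal genes and 10 of 16 against 8 for imprinted genes. They were 4 of 5 against 4 for endothelial genes, 2 of 6 against 2 for myeloid genes, 4 of 12 against 9 for Mbd3 and NuRD genes and 1 of 10 against 1 for housekeeping genes. The share over all protein-coding genes was 36.4%, against 29.4% for ESC-only regions, and it lay inside the interval of each of these 13 lists except the imprinted (38.6 to 81.5) and endothelial ones (37.6 to 96.4). At an end, the only members of these lists were the neural factor gene Zic2 (height 105), the meiosis gene Stra8 (45), the germ cell gene Nanos3 (36), the glutamate transporter gene Slc1a3 (35), the imprinted splicing protein gene Snrpn (30) and the endothelial cadherin gene Cdh5 (51). As a share of the iPSC-open regions at each list, iPSC-only regions made up 42.9% of 28 at endothelial genes, 35.3% of 17 at genes of the 2-cell-like state, 35.1% of 74 at mesoderm and endoderm genes, 34.5% of 58 at germline genes and 33.8% of 151 (26.7 to 41.6) at fibroblast and mesenchymal genes. They made up 26.5% of 49 at Mbd3 and NuRD genes, 26.3% of 133 at neural stem cell genes, 25.0% of 88 at primed pluripotency genes, 21.7% of 83 at imprinted genes, 3 of 15 at myeloid genes, 18.8% of 48 at epithelial genes, 15.2% of 33 at housekeeping genes and 10.8% of 37 at trophoblast genes. The 27.6% over all genes lay inside the interval of each of these lists except trophoblast (4.29 to 24.7).

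Of 919 autosomal microRNA hairpins in the RefSeq table, 30 (3.26%) lay within 1 kb of an iPSC-only region and 11 overlapped one. Near an intermediate-only region lay 39 hairpins, near an ESC-only region 21 and near a MEF-only region 87. These counts are not scaled to the number of regions, which was 22745 for iPSC-only, 24663 for intermediate-only, 11665 for ESC-only and 43065 for MEF-only. Within 1 kb, 20 of the 30 had no region of another pattern. The mature sequences below are shown with bases 2 to 8, the seed, in capitals, for microRNAs with a well-known tissue; for 29 of the 30 hairpins the table had a mature sequence, and no seed was shared between them. The coordinates are those of the iPSC-only regions.
mmu-miR-144-3p: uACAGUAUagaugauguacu
mmu-miR-451a: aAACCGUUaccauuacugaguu
mmu-miR-214-3p: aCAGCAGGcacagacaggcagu
mmu-miR-200c-3p: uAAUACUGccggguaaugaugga
mmu-miR-141-3p: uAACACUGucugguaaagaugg
mmu-miR-431-5p: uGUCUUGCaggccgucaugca
Mir144 and Mir451a, which mark red blood cell precursors, lie 125 and 290 bp from an iPSC-only region of height 29 at chr11:78072381-78072880. Mir214, known from mesenchymal cells, lies inside a region of height 32 at chr1:162223011-162223680, with a MEF-only region within 1 kb. Mir200c and Mir141, which hold the epithelial state by targeting Zeb1 and Zeb2, lie 872 and 464 bp from a region of height 36 at chr6:124716711-124717450, and regions also open in ESC and the intermediate lie within 1 kb of both. Mir431, of the imprinted cluster that includes Meg3, lies 377 bp from a region of height 27 at chr12:109589551-109590070. The tallest region near a hairpin was that over Mir874, of height 75. Except for Mir153, at 6, heights near the 30 hairpins lay between 25 and 75, most of them below the median of 39 of all iPSC-only regions.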

How the data were processed

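ATAC-seq of iPSC, the sorted intermediate, ESC and MEF was analysed from 1 deposited peak list per library. Per the submitters' processing notes, CASAVA 1.8.2, Bowtie2, Picard, MACS 1.4.2-1 and mm10 were used, without roles or parameters. Per the file headers each peak has a start, an end, a summit position and a height. The height is a signal in whole numbers that the authors deposited with no scaling to library size, so heights rank peaks within a list and are not compared between libraries as accessibility. Depth is unknown.

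Peaks on chromosomes 1 to 19 with a gap of at most 10 bp were joined across lists. Each region went to the protein-coding gene body nearest to it, up to 100 kb away, with RefSeq genes of GRCm38.p6; that table has no strand, so both gene ends were used, with a window of 1 kb. Promoter windows (31396) came from the RefSeq promoter table, which has no entry on chromosome 18. Of 208 entries in 14 gene lists, 205 matched a protein-coding gene. Members, lists and motifs were chosen with earlier results of these data known. Named are the 10 tallest regions, the 10 genes with most regions (1 of them is not reported here), the 10 with most per 100 kb (genes of at least 20 kb with at least 5 regions), the 10 tallest regions at gene ends, list members with a region at an end, pluripotency genes with any region, and the 5 longest runs with ties; further regions over 5 kb were added after seeing the data. With 1 library per group no test was run; shares carry Wilson 95% intervals. Alternatives changed the gap, the height minimum, list lengths, distances and chromosomes. The steps were tested on simulated peak lists with Python 3.11.15, numpy 2.4.6 and pandas 2.3.3.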

Additional observations from a re-analysis of the deposited data

Results flagged for a closer look

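These signals lie outside chromosomes 1 to 19 and were not used in the comparisons. On the Y chromosome the lists held 539 peaks in iPSC, 34 in the intermediate, 391 in ESC and 50 in MEF. On the X chromosome they held 3944 peaks in iPSC, 2604 in the intermediate, 3675 in ESC and 2148 in MEF. Joined in the same way, 764 of 2462 X-linked iPSC-open regions were open in iPSC alone (31.0%, 29.2 to 32.9), against 16.9% of ESC-open, 44.2% of intermediate-open and 50.7% of MEF-open regions that were open in that population alone. On contigs that are no chromosome there were 157 iPSC peaks, against 101 in the intermediate, 102 in ESC and 68 in MEF. Of those 157, 51 were on contig JH584304, which had 14 peaks in the intermediate and 0 in ESC and MEF.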

How the results depend on the processing

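The number of iPSC-only regions, 22745, stayed between 15874 and 23509 under 6 alternatives. It was 34499 where peaks were joined only if they shared at least 1 bp. That setting counts adjoining sub-peaks singly, both inside iPSC-only regions and in stretches shared with other lists. Of the 34499, 3634 lay in such shared stretches. The share of iPSC-open regions (29.5%) became 38.3% with that setting, 28.3% with gaps up to 100 bp, 29.1% with heights of at least 10, 27.7% with the taller 50% of each list and 26.5% with no other peak within 500 bp. The share within 1 kb of a gene end (3.76%) became 4.13% with a shared base required, 4.18% with the taller 50%, 3.25% with no other peak within 500 bp, 7.85% with a window of 2.5 kb and 3.40% from RefSeq starts, an alternative chosen after seeing the data. The 2.5 kb window raised the genes with a region at an end to 1791. The share with an ESC peak within 1 kb (9.18%) became 15.9% with a shared base required, 6.93% with gaps up to 100 bp, 8.64% with heights of at least 10, 6.63% with the taller 50%, 3.29% with no other peak within 500 bp and 29.5% at 5 kb. Lists of equal length and the X chromosome moved none of these shares outside its interval, and the count of pluripotency genes, 18, ranged from 16 to 20. Of the 20 genes chosen by number or density of regions, 9 counts moved by over 1.5 times with a shared base required and 7 with assignment within 20 kb. No paired analysis was possible because each group has 1 library. Unknown depth and unscaled heights limit what a missing peak shows.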

Other observations

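The neighbourhood of the iPSC-only regions was not described above. The nearest other region was itself iPSC-only for 23.7% of them, against 13.5% of all regions that are iPSC-only. It was open in iPSC and ESC alone for 14.2%, against 10.1% of all regions, and MEF-only for 19.4%, against 25.6% of all regions. An ESC-only region was the nearest for 6.26%, against 6.93% of all regions, and a region open in all 4 for 7.84%, against 10.5% of all regions. These shares are descriptions of the merged lists. Neighbouring regions share a library and are not independent. Peaks of a list more than 10 bp apart count as separate regions, which can add to the share of iPSC-only neighbours.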
